A study of Sus scrofa with 21 samples.

Results

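The 4 genes described here form the CXCR3 axis, that is, the chemokines CXCL9, CXCL10 and CXCL11 and their shared receptor CXCR3, in the whole blood of DD and LW pigs. Members were all array probes whose gene name or description in the scanner files named one of them, which gave 5 of 60305 probes, with 2 for CXCL10 and 1 for each of the others, and 4 of the 10051 genes named on the array. Another 2 probes had the sequence of a named one (a copy of CXCL10 probe 2 and a copy of the CXCR3 probe). A further 2 probes without a gene name were built on a source sequence that the array's annotation of a CXCL11 or CXCR3 probe also cites. All 9 were followed, and those last 2 are called the unnamed probes.

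Whole blood RNA was taken at 60 days from 10 DD pigs (the SLAdd line, inbred minipigs kept homozygous at the swine leukocyte antigen locus) and 11 LW pigs (Large White, a lean commercial breed), all fed a standard diet without restriction. The DD pigs came from 5 litters and the LW pigs from 6, with 1 array per pig on 3 chips that each held both breeds. The labels name no treatment, so the comparison of the design is between the breeds, and breed cannot be told apart from the inbreeding of the line. Whole blood mixes many cell types, and in it fewer cells of a type and less RNA per cell cannot be told apart. Markers of leukocytes (PTPRC, ITGB2), T cells (CD3E), B cells (CD79A), monocytes (CD14), platelets (PPBP) and red cells (HBB) were well above background on all 21 arrays.

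CXCL9, CXCL10 and CXCL11 are small secreted proteins that interferon gamma induces in monocytes, endothelial cells and many other cells, CXCL10 also responding to type I interferon and tumour necrosis factor. All of them bind CXCR3, a G protein-coupled receptor carried mainly by activated T cells and natural killer cells, and draw these cells to inflamed tissue. In the blood, monocytes are a known source of CXCL10 and lymphocytes the usual carriers of the receptor.

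In RefSeq's gene table (assembly Sscrofa11.1) the 3 ligand genes lie side by side on chromosome 8, with CXCL9 at chr8:71665541-71670236, CXCL10 at chr8:71693641-71695948 and CXCL11 at chr8:71713790-71725669, a stretch of 60129 bases in all. CXCR3 lies at chrX:57592032-57595706. The probes are 60 bases long. They are shown because every value below is the signal of one of these sequences, with only the first 30 bases for CXCL9 and CXCL10, whose probes reach beyond the coding part.
CXCL9 probe: tctcaacgtcctgatcaaaagaagatgaca
CXCL10 probe 1: gatcattccactttgggacttaatcgaagt
CXCL10 probe 2: ctgagtgggtgctcttcaaaataaaactaa
CXCL11 probe: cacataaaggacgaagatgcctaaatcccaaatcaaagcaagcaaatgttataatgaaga
CXCR3 probe: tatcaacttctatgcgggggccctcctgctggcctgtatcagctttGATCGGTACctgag
The capitals in the CXCR3 probe mark the codons of the aspartate, arginine and tyrosine that end the third transmembrane segment of such receptors (bases 47 to 55 of the probe). By the array's annotation the 2 CXCL10 probes begin at bases 671 and 1045 of the same messenger RNA, 374 bases apart. The GC content was 35% in both CXCL10 probes and in CXCL11, 41.7% in CXCL9 and 55.0% in CXCR3. The unnamed CXCR3 probe was designed on a complementary DNA that the annotation of the CXCR3 copy cites as well, and it had a GC content of 35%.

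CXCL10 was higher in DD pigs. On the log2 scale of the deposited matrix, probe 1 gave 8.52 in the lowest, 9.83 in the median and 13.11 in the highest of the 10 DD pigs, and 6.65, 8.20 and 9.30 in the 11 LW pigs. Of the DD pigs, 6 were above every LW pig, and 6 LW pigs were below every DD pig. Probe 2 gave 9.33, 10.53 and 13.90 in DD pigs and 7.73, 9.40 and 10.80 in LW pigs, with 5 DD pigs above all LW pigs. Every animal of both breeds was well above background on both probes.

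The breed fit (limma) held a term for chip and treated the litter as a random block, with Benjamini-Hochberg adjustment over all probes tested. The log2 FC (DD minus LW) of CXCL10 was 1.94 ± 0.50 (SE) for probe 1, or 3.85-fold, with an adjusted p of 0.0139, and 1.80 ± 0.52 for probe 2, or 3.48-fold, with an adjusted p of 0.0233. The copy of probe 2, a second spot read from the same RNA, gave 1.85 ± 0.51 with an adjusted p of 0.0202. Of the 45228 probes tested, 4955 passed the threshold of 0.05 as higher in DD pigs (11.0%) and 4854 as lower (10.7%), so a call of this kind was common. The size was not, since 42 probes had a log2 FC at or above that of probe 1 and 57 at or above that of probe 2. When litters rather than pigs were counted, a two-sided exact test that divided the 11 litter means between breeds in all 462 ways gave p = 0.00649 for probe 1 and p = 0.0195 for probe 2, where 0.00216 is the smallest p possible.

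**Figure D1:**
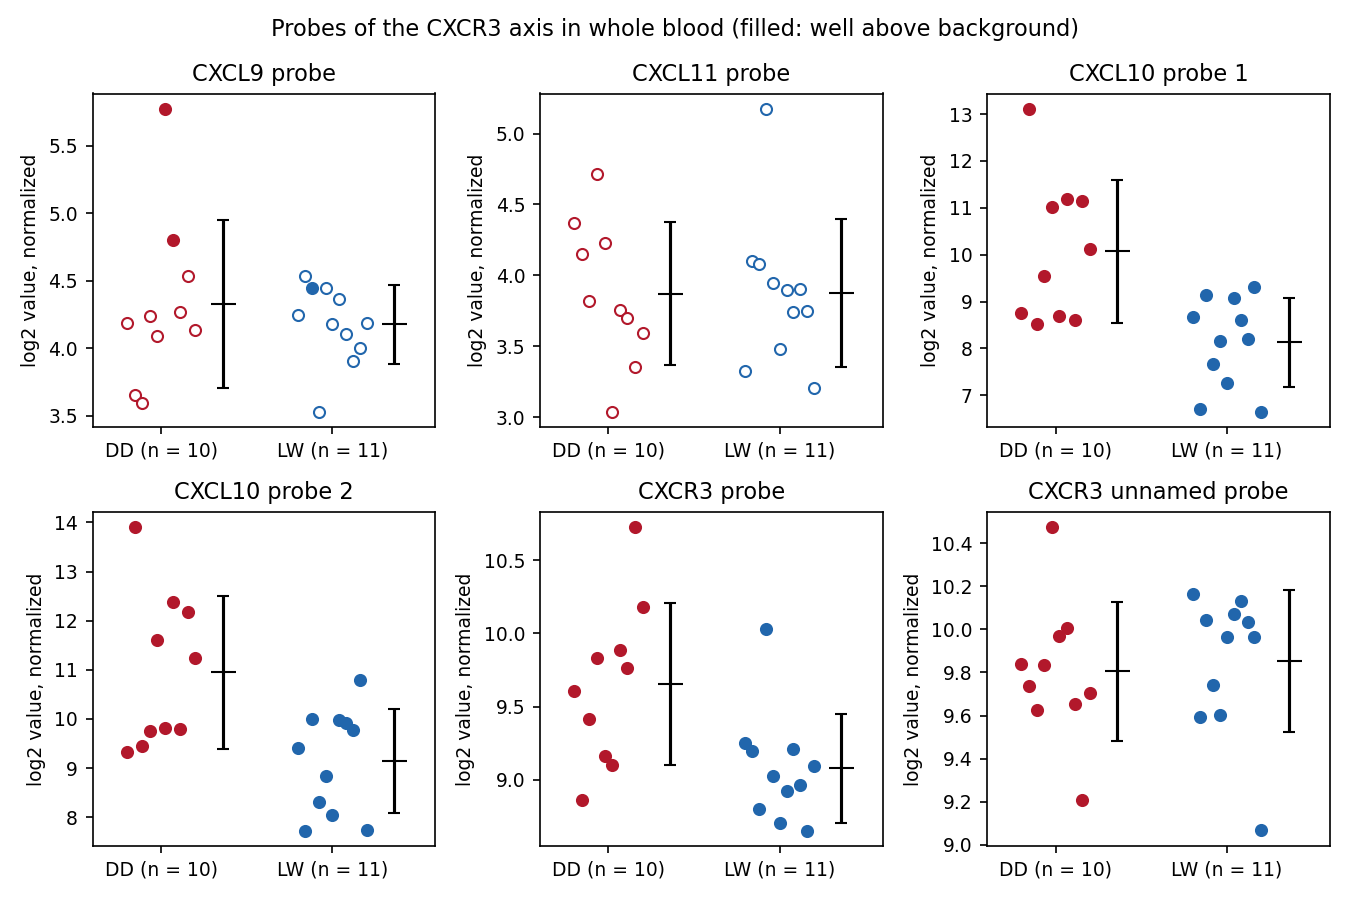
Normalized log2 values of 6 probes of the axis in each pig, DD in red and LW in blue, with bars for mean and SD and a scale of its own in each panel. Filled points were well above background. On CXCL10 probe 2, 5 DD pigs sit at 11.24 or higher, above the highest LW pig at 10.80, and the other 5 lie between 9.33 and 9.83. All CXCL11 points are open.

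The DD pigs were unevenly spread in CXCL10. On probe 2 the pigs DD_06 (13.90), DD_16 (12.38), DD_21 (12.17), DD_11 (11.60) and DD_23 (11.24) were above every LW pig. The other 5 lay between 9.33 and 9.83, within the LW range but close to or above the LW median of 9.40. On this probe 5 LW pigs were below every DD pig. Whether all DD pigs or only some were raised was not tested. The same 5 pigs led on probe 1, joined by DD_10 at 9.54. The SD on probe 2 was 1.55 in DD pigs and 1.06 in LW pigs.

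High and low pigs were often littermates. In 1 DD litter both pigs were above all LW pigs, in 3 litters 1 of the 2 was, and in 1 litter neither was. The gap between DD littermates ran from 0.43 to 2.72 with a median of 2.30, while in the 5 LW litters with 2 pigs it ran from 0.07 to 1.46 with a median of 0.83. The median gap within a DD litter was thus larger than the breed difference of 1.80. Over all probes tested the consensus correlation of littermates was -0.11. With no litter block the fit called fewer probes, 3403 higher and 3468 lower in DD pigs, against 4955 and 4854 with the block.

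**Figure D2:**
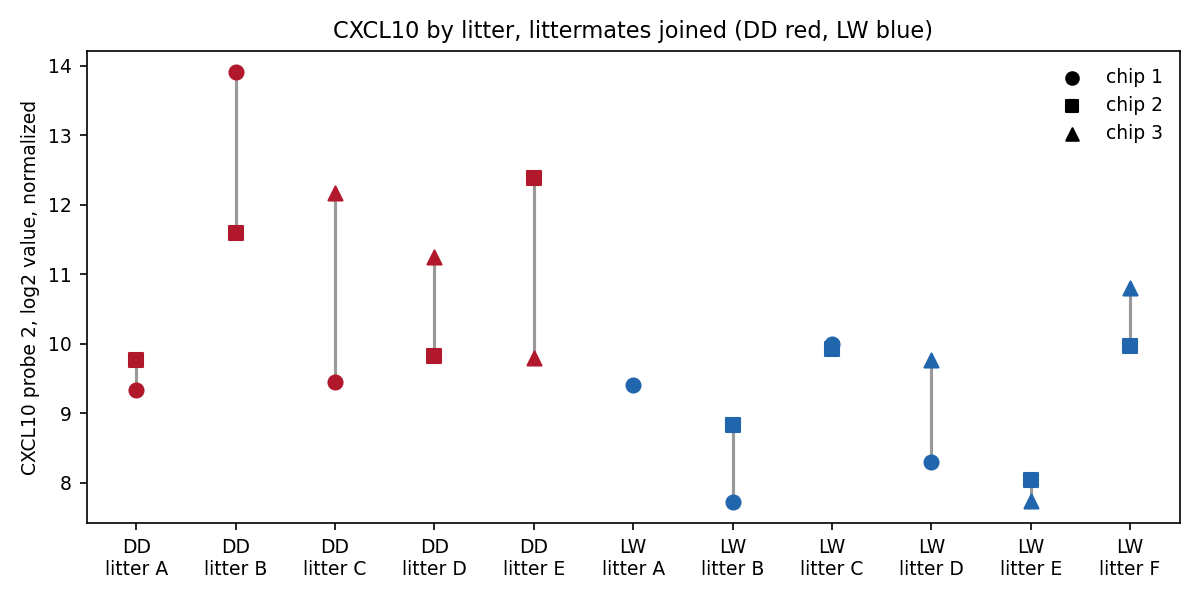
Normalized log2 value of CXCL10 probe 2 by litter, with littermates joined by a line and the marker giving the chip. The lines of DD litters B, C and E span 2.30 to 2.72, and the highest pig is DD_06 at 13.90.

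The CXCL10 difference had the same sign and a similar size on each chip. For probe 2 it was 2.04 on chip 1 (3 DD and 4 LW pigs), 1.70 on chip 2 (4 and 4) and 1.63 on chip 3 (3 and 3). For probe 1 it was 2.08, 1.83 and 1.91. Without chip 3 the log2 FC stayed at 1.88 and 1.84 for probes 1 and 2 but the adjusted p rose to 0.209 and 0.238, in a fit that called 649 probes in all. Without DD_06, the highest pig, it was 1.51 with an adjusted p of 0.0106 for probe 1 and 1.36 with an adjusted p of 0.0248 for probe 2. Without DD_21 probe 2 gave 1.68 with an adjusted p of 0.0507.

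The 2 CXCL10 probes read parts of the messenger that do not overlap, and they ranked the pigs alike. Their values correlated over the 21 pigs at r = 0.98 (Spearman 0.91), and at 0.97 without DD_06. Once breed and chip were removed r was still 0.98. The copy of probe 2 followed probe 2 at r = 0.997, with no pig more than 0.31 apart. These are descriptions, since all spots read the same RNA on the same array.

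CXCL9, the ligand most closely tied to interferon gamma, was hardly measurable. Its probe was well above background in 2 of 10 DD pigs (DD_13 at 5.78 and DD_16 at 4.80) and 1 of 11 LW pigs. Values ran from 3.59 to 5.78 with a median of 4.22 in DD pigs and from 3.53 to 4.53 with a median of 4.19 in LW pigs, and the groups overlapped. The log2 FC was 0.13 ± 0.18 (SE) with an adjusted p of 0.617. The DD pigs with measurable CXCL9 differed in CXCL10, at 9.83 in DD_13 and 12.38 in DD_16 on probe 2.

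CXCL11, the ligand with the highest known affinity for CXCR3, was not well above background on any of the 21 arrays, nor was its unnamed probe. DD pigs had a mean of 3.87 ± 0.50 (SD, n = 10), and LW pigs one of 3.87 ± 0.52 (SD, n = 11). Both probes were among the 25% of probes with the lowest mean, which were removed before the fit, so no fold change is given. A difference in CXCL11 was not detectable with these probes.

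The receptor gave values that depend on which probe is read. The CXCR3 probe ran from 8.86 through a median of 9.68 to 10.73 in DD pigs and from 8.65 through 9.03 to 10.03 in LW pigs. The ranges overlapped, with DD_21 and DD_23 above all LW pigs. The log2 FC was 0.58 ± 0.18 (SE), or 1.49-fold, with an adjusted p of 0.0327, and the copy gave 0.57 ± 0.18 with an adjusted p of 0.0303. Among all probes tested, 7.46% had a log2 FC at or above that of the CXCR3 probe. The permutation of litter means gave an exact p of 0.0195.

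The unnamed CXCR3 probe showed no such difference. Its values ran from 9.21 to 10.47 in DD pigs and from 9.07 to 10.17 in LW pigs, all well above background, with medians of 9.79 and 9.96. The log2 FC was -0.05 ± 0.13 with an adjusted p of 0.820. Over the 21 pigs it correlated with the CXCR3 probe at r = -0.39, whereas the probe and its copy correlated at 0.99. The 2 sequences that stand for this gene did not rank the pigs alike, and which of them follows the CXCR3 messenger was not tested.

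The CXCR3 difference also moved with the brightness of the arrays. As a measure of brightness, the 75th percentile of the processed signal of an array was taken on a log2 scale before normalization. It ran from 6.56 to 8.49 with a median of 7.64 on DD arrays and from 7.37 to 8.62 with a median of 8.41 on LW arrays. The difference in mean brightness, DD minus LW, was -0.69, and breed differences before normalization are not corrected for it. On chip 1 the mean brightness was 7.95 in DD pigs and 8.02 in LW pigs, and the CXCR3 difference was -0.03. On chip 2 brightness was 7.55 and 8.31, and the CXCR3 difference was 0.53. On chip 3 brightness was 7.09 and 8.36, and the CXCR3 difference was 1.32. The dimmest array of each breed (DD_21 and LW_07) held that breed's highest CXCR3 value.

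Before normalization the CXCR3 probe barely varied. Its log2 processed signal lay between 8.99 and 9.50 on all 21 arrays, with a DD mean of 9.24 ± 0.18 (SD, n = 10) and an LW mean of 9.28 ± 0.13 (SD, n = 11), and the litter means differed by -0.05 (exact permutation p = 0.437). Its SD over the 21 arrays was 0.15, against a median SD of 0.81 over the probes tested, of which 0.0133% had a smaller SD. The unnamed CXCR3 probe, by contrast, followed the brightness of the array before normalization at r = 0.89 and had an SD of 0.74. CXCL10 probe 2 had an SD of 1.59 before normalization, with a DD minus LW difference in litter means of 1.21 (exact permutation p = 0.141), and probe 1 one of 1.34 (exact permutation p = 0.0974).

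**Figure D3:**
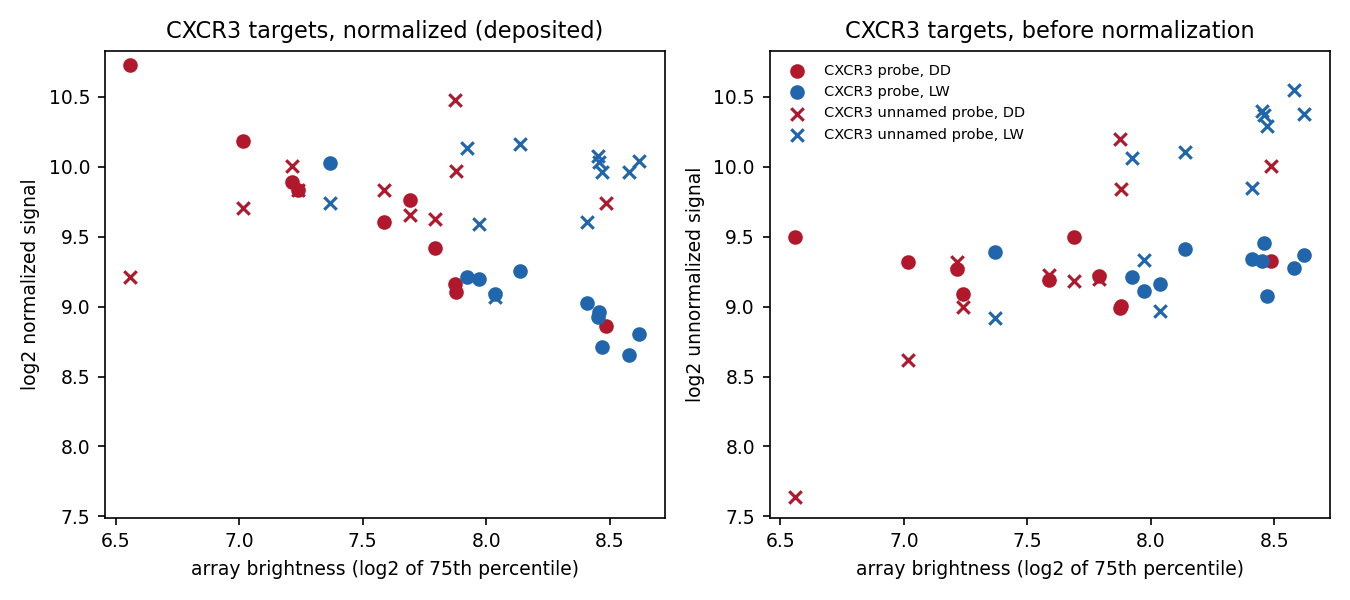
Log2 signal of the CXCR3 probe (circles) and the unnamed CXCR3 probe (crosses) against the brightness of each array, after normalization on the left and before it on the right, DD in red and LW in blue. The circles fall from 10.73 to 8.65 with brightness on the left and stay between 8.99 and 9.50 on the right.

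With brightness added to the fit as a covariate, the log2 FC of the CXCR3 probe was -0.076 with an adjusted p of 0.921, and that of its copy -0.055 with an adjusted p of 0.963. CXCL10 kept its direction there, at 2.37 for probe 1 and 2.32 for probe 2, with adjusted p of 0.0704 and 0.0901. The part that brightness has in either difference was not tested, since the DD arrays were dimmer as a group (exact permutation of litter means, p = 0.00866).

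Whether the members moved together within a breed was examined on litter means, with chip removed and the mean of each breed subtracted, by Pearson's r and Spearman's rho with exact permutations of litters within breeds, adjusted over the 18 relations computed. CXCL10 (probe 2) and CXCR3 gave r = -0.50 (p = 0.158, adjusted p = 0.473; rho = -0.27, p = 0.439), and r = -0.42 without the 2 litters farthest from the median of CXCL10. CXCL9 and CXCL10 gave r = -0.33 (exact p = 0.380, adjusted p = 0.566), which was 0.11 without the 2 farthest litters. The strongest relation among the 6 pairs of members was that of CXCL9 and CXCL11, at r = -0.61 (exact p = 0.0450, adjusted p = 0.202), and both are at or near background. No pair of members passed the adjusted threshold.

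Of the 18 relations, 1 did. CXCR3 and array brightness gave r = -0.97 over the 11 litters (exact p = 3.47e-05, adjusted p = 0.000625) and rho = -0.95 (p = 0.000174, adjusted p = 0.00313). It was -0.97 again without the 2 farthest litters and in the 6 LW litters alone (exact p = 0.00139). The CXCR3 probe barely varied before normalization, and normalization brings the arrays to a common scale. A negative r with brightness follows from those values and is not a separate result. CXCL10 and brightness gave r = 0.62 (exact p = 0.0795, adjusted p = 0.286), and 0.52 without the 2 farthest litters.

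CXCL10 was also set against the mean of 29 interferon-stimulated genes (ISG). Over the litters r was 0.74 (exact p = 0.0269, adjusted p = 0.202) and rho 0.41 (p = 0.216). Without the 2 litters farthest from the median of CXCL10 r was 0.30, so its size over litters depended on them. Leaving out extremes of CXCL10 also narrows its range, so whether the relation rested on those litters alone was not settled. The litter of DD_06 was the highest in both measures, and without it r was 0.44. Pig by pig, with breed and chip removed, the 29 genes correlated with CXCL10 at r from -0.21 (IFI35) to 0.84 (IFIH1), DD_06 included. Another IFIH1 probe, picked for its likeness to CXCL10, gave 0.86, and 0.79 without DD_06. DD_06 had an ISG mean of 12.17, while the other 9 DD pigs lay between 9.96 and 10.84 and the 11 LW pigs between 9.51 and 10.44. With the mean of the T and natural killer cell list, CXCL10 gave r = 0.40 (exact p = 0.247) and CXCR3 r = -0.33 (exact p = 0.348), neither past the threshold (adjusted p = 0.555 and 0.566).

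**Figure D4:**
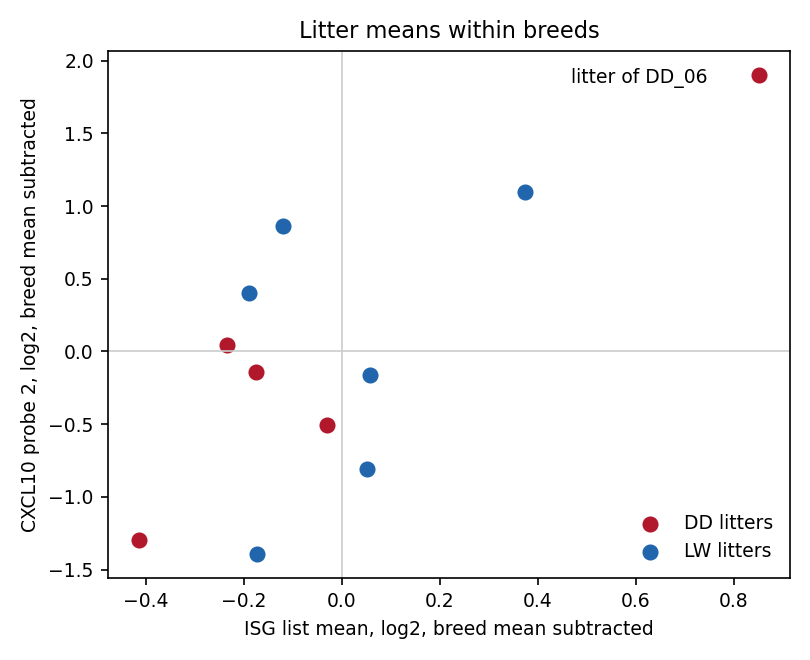
CXCL10 probe 2 against the mean of the ISG list, as litter means with chip removed and the breed mean subtracted (log2), DD litters in red and LW litters in blue. The litter of DD_06 lies at 0.85 and 1.90, apart from the other 10 litters.

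Genes around the axis were taken from 11 lists, of which each gene was read by its brightest probe. Beside them stands the share over all probes tested, of which 21.7% were called (11.0% higher and 10.7% lower). Of all 45228 probes, 1044 were called with brightness as a covariate (441 higher and 603 lower) and 649 without chip 3. Those 2 fits thus called fewer probes throughout, which holds for each list below. Without chip 3 the fit called 1 gene of the partner list and none of any other list. In the ISG list, 13 of the 29 genes tested rose in DD pigs, none fell, and the median log2 FC was 0.62, against -0.07 over all probes. The genes called were 44.8% of the list, beside 11.0% of all probes called higher. The lowest adjusted p was that of IFI44, at 0.62 ± 0.11 (adjusted p = 0.00126), followed by BST2, a tetherin that holds virus particles on the cell surface, at 1.38 ± 0.28 (adjusted p = 0.00299). MX2, a dynamin-like GTPase of the antiviral response, rose by 1.52 ± 0.32 (adjusted p = 0.00366). STAT2, which carries the type I interferon signal to the nucleus, rose by 0.45 ± 0.10 (adjusted p = 0.00482). Without DD_06 13 genes were called higher and 1 lower, with a median of 0.47, in a fit that called 6479 of 45228 probes higher and 6660 lower. With brightness as a covariate 7 of the 29 were called and the median was 0.89, and IFI44 (adjusted p = 0.109) and STAT2 (adjusted p = 0.105) were then not called.

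Interferon gamma is the inducer shared by the ligands. Of 16 of its target genes tested, 5 rose (31.2%, beside 11.0% of all probes) and none fell, and the median log2 FC was 0.30. FCGR1A, the high affinity receptor for immunoglobulin G, rose by 1.23 ± 0.35 (adjusted p = 0.0220). SERPING1, the inhibitor of complement C1, rose by 1.00 ± 0.27 (adjusted p = 0.0172), and the peptide transporter subunit TAP2 by 0.71 ± 0.23 (adjusted p = 0.0369). The adhesion molecule ICAM1 rose by 0.46 ± 0.15 (adjusted p = 0.0341). With brightness as a covariate 1 of the 16, ICAM1, was called (0.74, adjusted p = 0.0254), and TAP2 then had a log2 FC of -0.076.

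In the list of interferons, receptors and signal carriers (19 genes tested) 4 rose and 1 fell (26.3%, beside 21.7% of all probes), and the median was 0.04. TNF, an inducer of CXCL10, rose by 0.51 ± 0.12 (adjusted p = 0.00787), and IRF7, the regulator of type I interferon production, by 0.58 ± 0.14 (adjusted p = 0.0106). The kinase JAK1 fell by 0.42 (adjusted p = 0.0259). With brightness in the fit none of the 19 was called, and TNF was at 0.21 (adjusted p = 0.528), IRF7 at 0.20 (adjusted p = 0.693) and JAK1 at -0.12 (adjusted p = 0.886). IFNG itself, the interferon gamma gene, did not pass the threshold, at -0.37 ± 0.18 (adjusted p = 0.139). This list shared IRF7 and STAT2 with the ISG list, and 2 genes with the interferon gamma targets.

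Partners of the ligands and the receptor moved in both directions. Of 21 genes tested, 2 rose and 5 fell (33.3%, beside 21.7% of all probes), with a median log2 FC of -0.24. With brightness in the fit 3 of the 21 were called. DPP4, the cell surface peptidase that trims the amino end of CXCL10 and so blocks its signalling, gave the lowest adjusted p, with a DD mean of 8.23 ± 0.36 (SD, n = 10) and an LW mean of 9.34 ± 0.32 (SD, n = 11). Its log2 FC was -1.12 ± 0.14 (SE) with an adjusted p of 2.52e-05, and -1.18 with an adjusted p of 0.00129 when brightness was in the fit. The chemokine receptor CXCR4 gave -0.76 ± 0.21 (adjusted p = 0.0190), and -0.62 (adjusted p = 0.359) with brightness. ACKR3, a scavenging receptor that also takes up CXCL11, is among the 5 called lower, but it was well above background in 0 of 10 DD pigs and 5 of 11 LW pigs, so no size is given, and it was not called with brightness in the fit (adjusted p = 0.522). CCL8, a chemokine that attracts monocytes, rose by 1.33 ± 0.35 (adjusted p = 0.0146), with 1.52 (adjusted p = 0.107) when brightness was in the fit, and once breed and chip were removed it followed CXCL10 over the 21 pigs at r = 0.84. The other gene that rose was CXCL13, a chemokine that attracts B cells, at 0.68 ± 0.23 (adjusted p = 0.0397), and its log2 FC was -0.13 with brightness in the fit.

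The signal chain behind the receptor (11 genes tested) had no gene that rose and 2 that fell (18.2%, beside 10.7% of all probes called lower), with a median of -0.18. They were PIK3CG, a kinase subunit that G protein-coupled receptors activate, at -0.52 ± 0.13 (adjusted p = 0.0128), and ARRB2, an arrestin that ends receptor signalling, at -0.41 ± 0.11 (adjusted p = 0.0147). With brightness in the fit none of the 11 was called, and the median was 0.07. With arrays scaled to their 75th percentile it was 0.00883.

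T and natural killer cells are the cells that carry the receptor. Of 24 of their marker genes tested, 5 fell, 1 rose (25% called, beside 21.7% of all probes) and 18 were not called. The median was -0.32, and 21 of the 24 had a negative log2 FC, as did 57.6% of all probes tested. CTSW, a cathepsin of cytotoxic lymphocytes, gave -0.68 ± 0.11 (adjusted p = 0.000514), and CD247, the zeta chain of the T cell receptor complex, -0.77 ± 0.13 (adjusted p = 0.000758). The mean of the list ran from 8.89 to 10.25 in DD pigs and from 9.17 to 10.43 in LW pigs, so the breeds overlapped. CXCL10 and the CXCR3 probe (0.58) differed in the opposite direction. The unnamed CXCR3 probe did not, at -0.05, and the CXCR3 probe itself was at -0.076 with brightness in the fit. With brightness in the fit none of the 24 was called, and the median was -0.14.

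Markers of the other blood cells were read as well, monocytes being a known source of CXCL10. In the monocyte list (11 tested) none rose and 2 fell (18.2%, beside 10.7% of all probes called lower), namely CD163, a haemoglobin scavenger receptor, at -1.07 ± 0.23 (adjusted p = 0.00421) and CLEC7A, a receptor for fungal glucans, at -1.37 ± 0.24 (adjusted p = 0.000973), with a median of 0.03. CLEC7A was well above background in only 5 of 10 DD pigs, against 11 of 11 LW pigs, so its size is uncertain. With brightness in the fit CD163 was called (adjusted p = 0.0458) and CLEC7A was not (adjusted p = 0.0612). The mean of the monocyte list ran from 8.58 to 9.75 in DD pigs and from 8.91 to 9.81 in LW pigs. In the granulocyte list 1 of 9 rose, in the B cell list 1 of 7 rose and 1 fell, in the platelet list 1 of 8 rose, and in the erythroid list 3 of 11 rose, with medians of 0.11, 0.29, -0.08 and 0.31. The shares called were 11.1%, 28.6%, 12.5% and 27.3%, beside 21.7% of all probes. With brightness in the fit none of the granulocyte, B cell and erythroid genes and 2 platelet genes were called, and the erythroid median was -0.0012. The part of cell composition in the CXCL10 and CXCR3 differences was not tested.

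**Figure D5:**
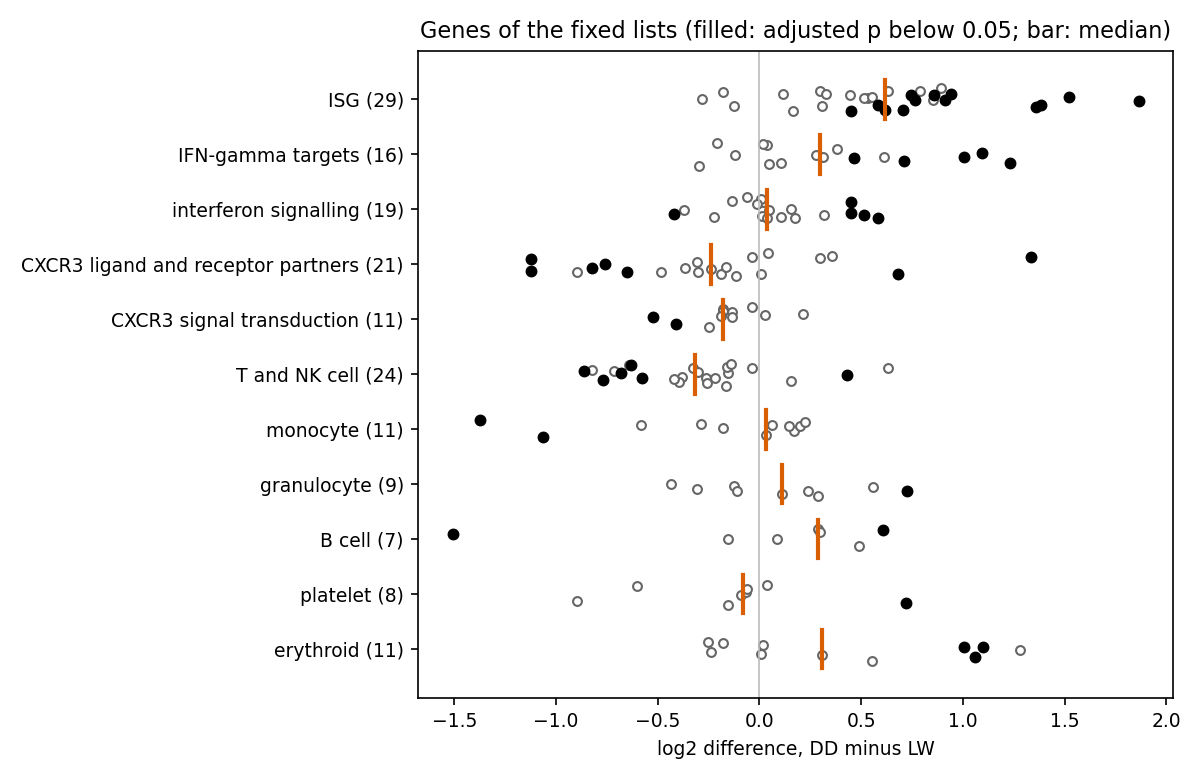
Log2 FC (DD minus LW) of each tested gene in the 11 lists, with the number tested in brackets, filled where the adjusted p was below 0.05 and with a bar at the median. The ISG list has the highest median, at 0.62, and the T and natural killer cell list the lowest, at -0.32.

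Finally, 8633 named genes were searched for those whose values followed CXCL10 probe 2 most closely over the 21 pigs once breed and chip were removed. The 10 nearest had r between 0.86 and 0.93. The nearest were PPA1, a pyrophosphatase, at 0.93, ISG20, an antiviral exonuclease, at 0.91, LAP3, a leucine aminopeptidase, at 0.91, and LAMP2, a lysosome membrane protein, at 0.91. Further down were CHMP7, ATAD1, RNF114, VCPIP1 and IFIH1, a sensor of viral RNA. Without DD_06 the range over the same genes was 0.79 to 0.90. Of these 10 genes, ISG20 differed between breeds in the same fit, at 1.01 ± 0.30 (adjusted p = 0.0256). PPA1 did not pass the threshold, at -0.09 ± 0.21 (adjusted p = 0.780), and nor did LAP3, at 0.12 ± 0.17 (adjusted p = 0.645).

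The 5 genes nearest to the CXCR3 probe were SLC6A12, POLR3D, TMEM63A, the chemokine CXCL13 and EMILIN1, with r between 0.96 and 0.97. Their own correlation with array brightness, after removal of breed and chip, ran from -0.95 to -0.90, beside -0.96 for the CXCR3 probe and a median of 0.19 over the probes tested. Of all probes tested, 619 (1.37%) had a correlation with brightness below -0.9, and 558 of them were called higher in DD pigs. Over all 45228 probes the count was 4955 (11.0%). The 619 were picked by their relation to brightness, and the DD arrays were dimmer, so their count is not a separate result. CXCL10 probe 2 correlated with brightness at 0.25 by the same measure.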

How the data were processed

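The authors hybridized whole blood RNA to a one-colour Agilent pig array, read it with Agilent Feature Extraction 10.7.3.1 and removed 3 arrays. The deposited log2 values are the authors' matrix, background corrected and quantile normalized. The deposited scanner intensity values (processed signal, spot and local background) are not normalized between arrays, and their flags for a signal well above background are other values set by the authors' software.

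Groups came from the breed in the labels, with litter and chip from the study's supplementary files. Repeated probes were averaged, the 25% of probes with the lowest mean removed, and breeds compared in limma 3.58.1 (R 4.3.3; chip fixed, litter as a random block, eBayes, Benjamini-Hochberg, threshold 0.05). On the arrays, 44.7% to 63.8% of probes were well above background and 0 were saturated. The number of arrays limits the precision. The p-values measure the spread between pigs, or between litters where an exact permutation gave them. A gene's name came from the scanner file, its RefSeq accession, an identical sequence or an older symbol, which named 21972 probes. The text names the member probes, up to 4 genes of each list with the lowest p (with IFNG chosen afterwards) and the genes most like CXCL10 (10) and CXCR3 (5), of which 1 is not reported here. Members and lists were chosen with earlier results of these data known. The fit was tested on simulated data. Alternatives were other normalizations, filters and fits, and each pig and chip left out. Figures used matplotlib 3.10.9.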

Additional observations from a re-analysis of the deposited data

Results flagged for a closer look

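In the 10 DD pigs, DD_21 had a value of 2.08 on the unnamed CXCL11 probe, below the other 9 by 0.50 of the range of the group, which passes Dixon's critical value for 10 values. The probe was not well above background on any array, and the array of DD_21 was the dimmest of all. Chance flags about 1 in 20 groups, and 9 probes were examined. On CXCL10 probe 2 the gap of DD_06 to the next pig was 0.33 of the range and did not pass. The test was not run on the group of 11 LW pigs.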

How the results depend on the processing

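CXCL10 kept its direction under every alternative run and CXCR3 did not. With array brightness as a covariate the CXCL10 log2 FC was 2.37 for probe 1, 2.32 for probe 2 and 2.34 for its copy (adjusted p = 0.0704, 0.0901 and 0.0811), and without chip 3 it was 1.88, 1.84 and 1.87 (adjusted p = 0.209, 0.238 and 0.215). Before any normalization, an alternative chosen after seeing the data, litter means differed by 1.34, 1.21 and 1.25 (exact p = 0.0974, 0.141 and 0.136). With each pig left out in turn the log2 FC ran from 1.51 to 2.14 for probe 1, from 1.36 to 2.01 for probe 2 (not past the threshold without DD_21) and from 1.42 to 2.05 for the copy. For the CXCR3 probe the call was lost with no filter on dim probes (0.58), no litter block (0.57), no chip term (0.58), without chip 2 (0.60) and without chip 3 (0.27), and the sign turned with brightness (-0.076) and before normalization (-0.055). For its copy the call was lost with no chip term (0.57), without chip 2 (0.60) and without chip 3 (0.28), and the sign turned with brightness (-0.055) and before normalization (-0.082). Leaving out each pig gave 0.47 to 0.69 for the CXCR3 probe, lost in 10 of 21 cases, and 0.48 to 0.67 for the copy, lost in 8. Without chip 1 the CXCR3 probe rose to 0.87. The unnamed CXCR3 probe turned to 0.0074 without chip 1 and to 0.10 with brightness, ranged from -0.12 to 0.0032 with each pig left out, and before normalization gave -0.72 (exact p = 0.0390). No difference before normalization, of this probe or of CXCL10, is corrected for the DD minus LW difference in mean brightness of -0.69. CXCL9 ranged from -0.0060 to 0.20 with each pig left out. CXCL11 was removed by the filter, so it was fitted without the filter only.

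Probes called higher in DD pigs numbered 4955, but 924 with no chip term, 2662 without chip 2, 263 without chip 3, 441 with brightness and 2201 (without DD_21) to 6479 with each pig left out. Those called lower numbered 4854, but 1795 with no chip term, 386 without chip 3, 603 with brightness, 3112 with scaling to the 75th percentile, where 66.2% of calls were higher against 50.5% here, and 2835 (without LW_18) to 6660 with each pig left out. The share higher was 34.0% with no chip term and 38.1% without chip 2. Among the genes named, brightness turned the sign of CHMP7 (0.072), CXCL13 (-0.13), ELANE (-0.034), EMILIN1 (-0.21), GNAI3 (0.071), GNB1 (0.12), POLR3D (-0.013), PPA1 (0.25), SLC6A12 (-0.15) and TAP2 (-0.076). LAP3 ranged from -0.043 to 0.19 with each pig left out, PPA1 turned without chip 3 (0.024), GNB1 with scaling to the 75th percentile (0.026), and ITGB3 with that scaling (0.55) and without chip 3 (0.0038).

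Of the 18 relations, that of CXCR3 with brightness kept its sign and its call under every alternative (r from -0.97 to -0.94). These alternatives could hardly give another outcome for a probe nearly constant before normalization. Scaling to the 75th percentile, for one, subtracts brightness itself. Without the litter of DD_06 the sign turned for CXCL9 with CXCL10 (0.073), CXCR3 (-0.21), brightness (0.18) and the ISG list (0.081), for CXCL11 with brightness (-0.085), and for the T and natural killer cell list with CXCL10 (-0.030) and CXCR3 (0.24). With scaling to the 75th percentile it turned for CXCL11 with CXCL9 (0.18), brightness (-0.46) and the ISG list (-0.24), from the scanner values for CXCL11 with CXCL10 (0.049) and CXCR3 (-0.089), and with no chip correction for CXCL11 with CXCL10 (0.038) and the T and natural killer cell list (0.049). None of these passed the threshold. The cause of these changes was not tested. No paired analysis was possible because an animal's number belongs to 1 pig of 1 breed.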
